A study of Homo sapiens with 4 samples.

Results

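The 8 genes described here make and regulate peptides for MHC class I presentation: the immunoproteasome subunit genes PSMB8, PSMB9 and PSMB10, the proteasome activator genes PSME1 and PSME2, the trimming aminopeptidase genes ERAP1 and ERAP2, and NLRC5, a transcriptional regulator of class I genes. They are 8 of the 58735 genes in each file, and all 8 symbols matched 1 Ensembl identifier in GENCODE 29. The genes were chosen by their function and with their higher counts after RALY depletion already known, so their differences between the groups are given as a description, with standard errors and without p-values.

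The study depleted RALY, an hnRNP-type protein that binds RNA, in A549 cells, a human lung adenocarcinoma line. The control group (shControl, genotype labelled WT) received a lentivirus with a control hairpin and the other group (shRALY, genotype labelled RALY knockdown) a lentivirus against RALY, and all 4 libraries, 2 in each of the 2 groups, carry the time label day 2. All cells were thus lentivirus-infected, and the labels state neither how many hairpins were used nor whether replicates were separate cultures, so the spread between libraries may be technical. Polyadenylated RNA was counted per gene, with 16745818 to 18632787 counts per library.

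RALY itself (chromosome 20, 33993646 to 34108308, plus strand, GRCh38) had 2208 and 2272 counts in shControl and 751 and 679 in shRALY, 3.12-fold lower (log2 -1.64, SE 0.11; adjusted p = 5.85e-11 by edgeR's quasi-likelihood test with Benjamini-Hochberg adjustment). Of 6 epithelial markers, 3 were called higher (edgeR adjusted p under 0.05), against 20.6% of all tested genes. The simple epithelial keratin KRT19 rose from 95.4 ± 7.39 to 311 ± 17.4 CPM, the read count scaled by TMM-normalised library size (SD, n = 2; edgeR adjusted p = 1.35e-11), and KRT7 and CDH1 were higher with edgeR adjusted p = 0.0304 and 0.019. Neither passed without shControl replicate 1 or without shRALY replicate 2, nor KRT7 without shRALY replicate 1 or with library size alone. Their part in the results was not tested. KRT8 and KRT18, which share 22.1% and 21.7% of their 50-base words with other genes, had 3493 to 3954 and 1595 to 1703 CPM. The labels call the cells alveolar basal epithelial. Of the markers of such cells, SFTPC and NKX2-1 of alveolar type II cells had at most 2 counts in a library and the basal keratin KRT5 at most 1, while the type II transporter gene ABCA3 had 72.2 to 103 CPM. TP63, a basal cell transcription factor gene, was lower, at 60 and 56 counts in shControl against 25 and 26 in shRALY (edgeR adjusted p = 0.00726), and did not pass without shRALY replicate 1. NGFR, another basal marker, was higher at 2 and 6 counts against 19 and 11 (edgeR adjusted p = 0.0433), and other genes cover 27.1% of its exonic bases. It did not pass with DESeq2 (adjusted p = 0.15) or without the filter on low counts (edgeR adjusted p = 0.0733). Its log2 fold change of 1.87 ranged from 1.26 to 2.88 with 1 library left out. Because immune cells carry the immunoproteasome constitutively, 14 immune cell markers were summed. They gave 11.8 to 13.4 CPM in shControl and 9.36 to 13.4 CPM in shRALY. None of the 4 that could be tested was called, against 20.6% called higher and 20.4% called lower among all tested genes. The 4 tested markers were counted in every library. CD14 had 117 and 138 counts in shControl and 147 and 84 in shRALY, and ITGAM 71 and 60 against 54 and 49. CD4 had 7 and 17 counts against 23 and 11, and CD8A 7 and 12 against 12 and 7. Of the 14, CD3E, CD3D, MS4A1, LYZ, CD1C and KLRD1 were at 0 in every library. PTPRC, the pan-leukocyte marker, had 5 counts in shRALY replicate 1 and 0 in the other libraries. The 7 fibroblast and endothelial markers summed to 18.6 to 19.2 CPM in shControl and 13.4 to 16.1 CPM in shRALY.

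The standard proteasome is a barrel of stacked rings whose proteolytic sites lie in the beta subunits encoded by PSMB6, PSMB7 and PSMB5. Interferons induce alternative catalytic subunits, PSMB9, PSMB10 and PSMB8, which replace these in newly assembled particles and change which peptides are cut. PSME1 and PSME2 encode the alpha and beta chains of PA28, a ring that caps the barrel. Cut peptides are carried into the endoplasmic reticulum by the TAP1 and TAP2 transporter, trimmed at their amino end by ERAP1 and ERAP2, and loaded on class I molecules. NLRC5 acts with DNA-bound factors at class I promoters, as its relative CIITA does at class II promoters.

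The sequence around the start sites is shown first, where interferon regulatory factors (IRF) and STAT proteins read short motifs. Whether such motifs had a part in the counts of the 8 genes was not tested. RefSeq promoter windows (GRCh38.p14, 250 bases before to 50 after an annotated start) were found for 7 of the 8 genes, 10 windows in all. NLRC5 is named without a window. The IRF core was searched as GAAANNGAA or, on the other strand, TTCNNTTTC. It occurred in a window of 6 of the 7 genes, against 9.86% of the 27305 genes with a window, and in 6 of the 10 windows, against 8.11% of 35116 windows of the same length. The motifs were chosen for genes known to be interferon-inducible, and a match is a description of letters, not of binding. Each stretch below has 30 bases on the gene's own strand, with the matching letters in capitals (in TAP1, 2 overlapping matches). The search itself fixed the capital letters outside the N positions, so their likeness is not a result:
PSMB8: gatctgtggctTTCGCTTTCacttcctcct
PSMB10: agggtaaaggcGAAAGCGAAagcaggaagt
PSME1: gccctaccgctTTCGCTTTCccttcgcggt
PSME2: acctggggagtGAAAGCGAAagcccgggcg
ERAP1: cgggctccactTTCACTTTCggtcctgggg
ERAP2: atcttagaacaGAAAGTGAAagcaaaagta
TAP1: cggccgctTTCGATTTCGCTTTCccctaaa

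These stretches lie at chr6:32844032-32844061 (PSMB8, minus strand), chr16:67936853-67936882 (PSMB10, minus), chr14:24136189-24136218 (PSME1, plus), chr14:24146620-24146649 (PSME2, minus), chr5:96807924-96807953 (ERAP1, minus), chr5:96876459-96876488 (ERAP2, plus) and chr6:32853816-32853845 (TAP1, minus). Counted from the start base as 1, with no 0, the matches begin at -3 in PSMB8, -21 in PSMB10, 7 in PSME1, -28 in PSME2, 4 in ERAP1 and -30 in ERAP2, and those of TAP1 run from -133 to -119. The match of PSMB8 spans the start and those of PSME1 and ERAP1 lie beyond it. Only 3 of the 7 genes thus keep a match when the 250 upstream bases alone are searched, and 6.88% of all windows hold one there. The window of PSMB9 held no match. In RefSeq, PSMB9 starts at 32854192 and the transporter gene TAP1, on the opposite strand, at 32853704, 488 bases apart. The TAP1 stretch lies 347 to 376 bases before that PSMB9 start, outside its window. The PSMB9 gene of GENCODE 29 begins further upstream, and its span includes TAP1.

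The other motifs were rarer among the 8 genes. The STAT site called GAS, searched as TTCNNNGAA, which reads the same on both strands, occurred once, in the PSMB8 window with the IRF match, at -65 to -57. Of all windows, 7.66% held it. The κB motif of NF-kB also occurred once, in the ERAP1 window at -73 to -64, against 5.91% of all windows. The plot of motif positions shows the 10 windows of these genes and those of TAP1 and TAP2.

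**Figure D1:**
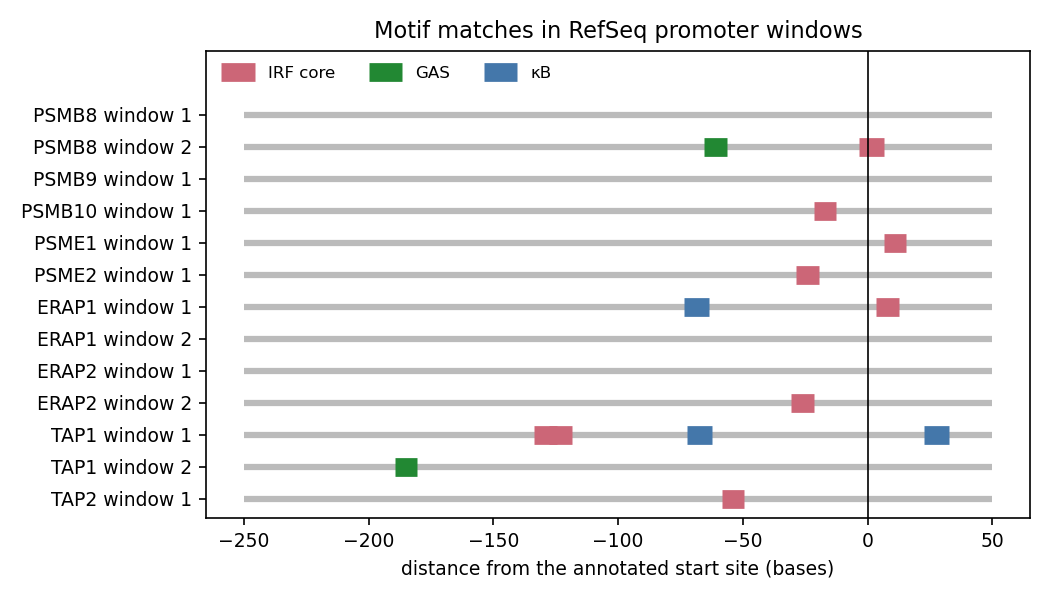
Motif matches (coloured blocks) in the RefSeq promoter windows (grey bars) of the 7 member genes with a window and of TAP1 and TAP2; the x axis is the distance from the annotated start site in bases, drawn as a vertical line. The IRF core matches of the 6 member genes that hold one cluster at the start, between -30 and 15.

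All 8 genes had more counts in both shRALY libraries than in both shControl libraries, with log2 fold changes of 1.28 to 3.07 and a median of 1.84, against a median of -0.01 over the 15912 genes tested. Every one of the 8 was called higher in the fit over all genes (edgeR adjusted p under 0.05), a call made for 20.6% of tested genes, and 34.2% of tested genes had both shRALY libraries above both shControl libraries. Since the genes were chosen with this contrast known, nothing is read from these counts. Each gene had at least 53 counts in every library, so each passed the filter on low counts in the control group too. In bulk RNA, a change in the number of cells that express a gene and a change in RNA per cell cannot be told apart.

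PSMB8, on chromosome 6 at 32840717 to 32844703 (minus strand), encodes the chymotrypsin-like immunosubunit that takes the place of PSMB5. The 2 shControl libraries held 20.5 and 16.6 CPM and the 2 shRALY libraries 74.5 and 71.0 CPM, with raw counts of 367 and 283 against 1369 and 1161. The groups lay far apart and the 2 shRALY libraries differed little, giving a 3.92-fold higher level (log2 1.97, SE 0.13). An antisense gene, PSMB8-AS1, covers 20.6% of the exonic bases of PSMB8, and whether reads were counted by strand is not stated. PSMB8-AS1 had 4 and 8 counts in shControl and 36 and 39 in shRALY. With its counts added to those of PSMB8 the log2 fold change was 1.99.

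PSMB9, on chromosome 6 at 32844136 to 32859585 (plus strand), encodes the subunit that takes the place of PSMB6. It had 9.32 and 8.51 CPM in shControl and 41.5 and 49.5 CPM in shRALY, a 5.09-fold higher level (log2 2.35, SE 0.15) and the largest fold change of the proteasome members. Its neighbour TAP1, which is no member, rose from 42.2 ± 5.38 to 257 ± 16.5 CPM (SD, n = 2; log2 2.61, SE 0.12; edgeR adjusted p = 4.85e-14).

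PSMB10, on chromosome 16 at 67934502 to 67937087 (minus strand), encodes the subunit that takes the place of PSMB7. Its raw counts of 74 and 106 in shControl and 323 and 298 in shRALY gave 4.13 and 6.22 CPM against 17.6 and 18.2 CPM. The shControl libraries differed by more than the shRALY libraries did, and the groups did not overlap (3.46-fold, log2 1.79, SE 0.20). The read-through gene AC040162.1, on the same strand, covers 34.8% of the exonic bases of PSMB10 and shares 38.9% of the 50-base words of its longest transcript, which makes the assignment of reads to either gene uncertain. AC040162.1 had 18 and 24 counts in shControl and 49 and 34 in shRALY, and the log2 fold change of the summed counts was 1.67.

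PSME1 (chromosome 14, 24136158 to 24138967, plus strand) and PSME2 (chromosome 14, 24143362 to 24147570, minus strand) lie 4395 bases apart and encode the 2 chains of one ring. PSME1 had 74.8 and 77.1 CPM in shControl and 179 and 188 CPM in shRALY, the smallest difference among the 8 genes (2.42-fold, log2 1.28, SE 0.11). PSME2 had 65.7 and 62.0 CPM in shControl and 193 and 197 CPM in shRALY (3.05-fold, log2 1.61, SE 0.11). For both genes the libraries of a group lay close together and the groups were well separated.

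ERAP1, on chromosome 5 at 96760810 to 96808100 (minus strand), encodes the aminopeptidase that shortens long precursors. It had 25.9 and 30.1 CPM in shControl and 73.3 and 80.8 CPM in shRALY, 2.75-fold higher (log2 1.46, SE 0.12). ERAP2, on chromosome 5 at 96875939 to 96919716 (plus strand), encodes a related enzyme that prefers other amino-terminal residues. Counts of 99 and 53 in shControl and 282 and 276 in shRALY gave 5.53 and 3.11 CPM against 15.3 and 16.9 CPM. The shControl libraries of ERAP2 differed the most of any member in relative terms, and the fold change of 3.71 (log2 1.89, SE 0.23) has the largest error. Its log2 fold change was 1.56 without shControl replicate 2 and 2.36 without shControl replicate 1.

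NLRC5, on chromosome 16 at 56989485 to 57083531 (plus strand), had 130 and 151 counts in shControl and 1138 and 1195 in shRALY. This gave 7.26 and 8.86 CPM against 61.9 and 73.1 CPM, 8.37-fold higher (log2 3.07, SE 0.15), the largest change of the 8 genes. Of the 15912 genes tested, 154 had a log2 fold change at least as high as that of NLRC5, and 839 at least as high as that of PSME1, the lowest of the 8.

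**Figure D2:**
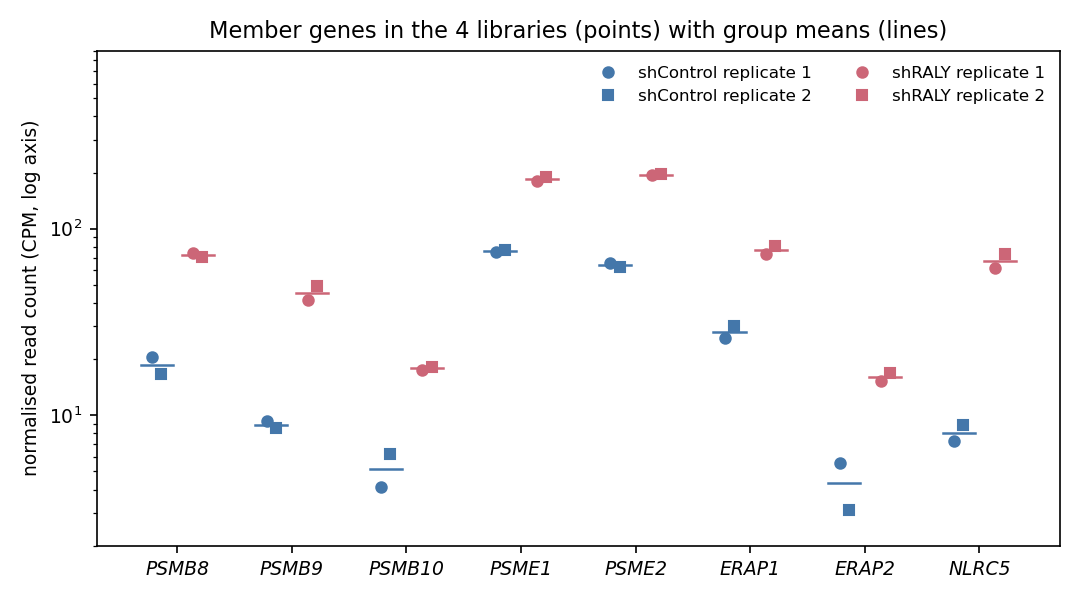
Normalised read counts (CPM, log axis) of the 8 genes in each library; points are libraries, marked by group colour and replicate shape, and lines are group means. Both shRALY points lie above both shControl points for every gene, and the 2 shControl points of ERAP2, 5.53 and 3.11 CPM, lie the furthest apart on this axis.

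Levels were compared between genes only per length, as CPM per kilobase of the union of annotated exons. In shControl the order was PSME1 (42.6 ± 0.92), PSME2 (17.8 ± 0.72), PSMB8 (6.19 ± 0.91), ERAP1 (3.53 ± 0.37), PSMB9 (2.90 ± 0.19), PSMB10 (2.79 ± 0.80), NLRC5 (0.65 ± 0.09) and ERAP2 (0.58 ± 0.23), as mean ± SD with n = 2. PSMB9 and PSMB10 did not differ beyond their spread, nor did NLRC5 and ERAP2. In shRALY the 3 most abundant kept their order, at 103 ± 3.61, 54.5 ± 0.80 and 24.3 ± 0.82 CPM per kilobase. PSMB9 (14.8 ± 1.85) then stood above ERAP1 (9.70 ± 0.67) and PSMB10 (9.66 ± 0.25), which did not differ beyond their spread. NLRC5 followed at 5.45 ± 0.64 and ERAP2 at 2.17 ± 0.15. The length is uncertain where a gene has many annotated transcripts: scaled to the longest transcript, NLRC5 in shRALY was at 9.89 ± 1.16 CPM per kilobase. On that scale too, PSMB9 and PSMB10 overlapped in shControl and ERAP1 and PSMB10 in shRALY.

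The genes whose products the 3 immunosubunits replace were abundant in both groups. The fit over all genes called none of PSMB5, PSMB6 and PSMB7 (edgeR), against 20.6% called higher and 20.4% called lower among all tested genes. DESeq2 called 0 of the 3 as well, and 1 was higher at an unadjusted edgeR p under 0.05. PSMB5 had 143 and 157 CPM in shControl and 162 and 153 CPM in shRALY (log2 0.07, SE 0.11; edgeR adjusted p = 0.646), with overlapping groups. PSMB6 had 145 and 140 CPM against 164 and 168 CPM (log2 0.22, SE 0.10; edgeR adjusted p = 0.105), and PSMB7 151 and 154 CPM against 183 and 174 CPM (log2 0.23, SE 0.10; edgeR adjusted p = 0.0827). For PSMB6 and PSMB7 both shRALY libraries lay above both shControl libraries, as they did for 34.2% of all tested genes. Their calls depended on the fit: PSMB6 passed without shControl replicate 1 (adjusted p = 0.0229), and PSMB7 without shControl replicate 1 (0.0457) or 2 (0.0133) and with a replicate block (0.0414).

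Set against its partner per kilobase, each immunosubunit mRNA took a larger share of the pair in shRALY. PSMB8 made up 7.76% and 5.88% of PSMB8 plus PSMB5 in shControl and 21.3% and 21.5% in shRALY. PSMB9 made up 2.93% and 2.78% of its pair with PSMB6 in shControl and 10.7% and 12.2% in shRALY. PSMB10 made up 2.58% and 3.75% of its pair with PSMB7 in shControl and 8.46% and 9.19% in shRALY. The shares depend on the length used. Scaled to the longest transcript, the group means in shControl and shRALY were 6.35% and 20.1% for PSMB8, 1.99% and 8.20% for PSMB9, and 2.65% and 7.47% for PSMB10. On both scales the constitutive mRNA stayed the more abundant one in all 3 pairs. These shares are of mRNA, not of protein in assembled proteasomes.

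**Figure D3:**
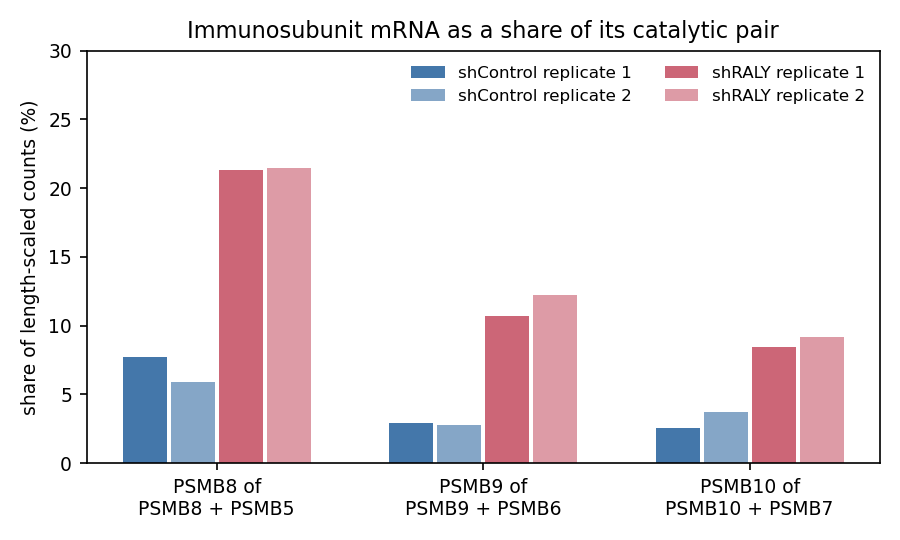
Share of the length-scaled counts of each catalytic pair that came from the immunosubunit gene (y axis, percent), 1 bar per library, scaled by the union of annotated exons. The shRALY bars reach 21.3% and 21.5% for PSMB8, 10.7% and 12.2% for PSMB9 and 8.46% and 9.19% for PSMB10, each above its shControl bars.

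Within the other pairs the balance moved less. PSME1 made up 69.6% and 71.4% of PSME1 plus PSME2 per kilobase in shControl and 65.1% and 65.8% in shRALY. ERAP2 made up 18.6% and 9.96% of ERAP1 plus ERAP2 in shControl and 18.3% and 18.3% in shRALY, so the groups overlapped. The ERAP2 share was lowest in shControl replicate 2, and the other 3 libraries were alike.

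Among all tested genes, 20.6% were called higher and 20.4% lower. Of 11 other 20S core subunit genes, 1 was higher and none lower (edgeR), with a median log2 fold change of 0.03. The counts were 2 and 0 at an unadjusted p under 0.05, and DESeq2 called none; without shControl replicate 1, 4 were higher. The gene called higher, PSMA6, had only 3.59 ± 0.84 CPM in shControl and 6.03 ± 0.29 in shRALY (edgeR adjusted p = 0.022). Its call was lost with DESeq2 (adjusted p = 0.0738), without either shRALY library (edgeR adjusted p = 0.065 and 0.118) and without shControl replicate 2 (0.13). PSMA7, another ring subunit gene, had 245 ± 8.60 CPM in the control group and 246 ± 8.64 CPM after knockdown.

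Of 18 genes of the 19S particle, which recognises ubiquitin-tagged substrates, 1 was higher and 5 lower (edgeR), with a median of -0.08; the share called lower is near the 20.4% of all tested genes. PSMD3, a lid subunit gene, fell from 239 ± 19.4 CPM to 135 ± 4.71 CPM after knockdown (edgeR adjusted p = 1.50e-06, log2 -0.82, SE 0.11). The calls of PSMD11, PSMD12 and PSMD1, at log2 -0.37, -0.40 and -0.35, were each lost when either shRALY library was left out, and the count of lower genes was then 1. The count of higher genes was 3 without shControl replicate 2, and 0 without either shRALY library, with library size alone and with no filter.

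Of 8 tested genes for other activators, the inhibitor PSMF1 and assembly factors, 1 was higher and 1 lower, with a median of -0.15. PSMF1 was higher (log2 0.38, SE 0.10; edgeR adjusted p = 0.00555), which no longer passed without shRALY replicate 1 (0.0953) or 2 (0.152). The assembly chaperone gene PSMG1 fell to 23.4 ± 1.82 CPM from 36.3 ± 7.01 CPM (edgeR adjusted p = 0.00134, log2 -0.63, SE 0.15). POMP, an assembly factor for new proteasomes, had 68.6 ± 8.29 CPM in the control group and 71.9 ± 4.53 CPM after knockdown. PSME3, which encodes the nuclear PA28 gamma ring, had 281 and 274 CPM in the control group and 239 and 240.5 CPM after knockdown (edgeR adjusted p = 0.0983). It passed as lower with a replicate block, with library size alone and without either shControl library, when 2 to 3 genes of this list were lower. POMP and PSME3 are outside the naming rule and were picked after their values were seen.

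**Figure D4:**
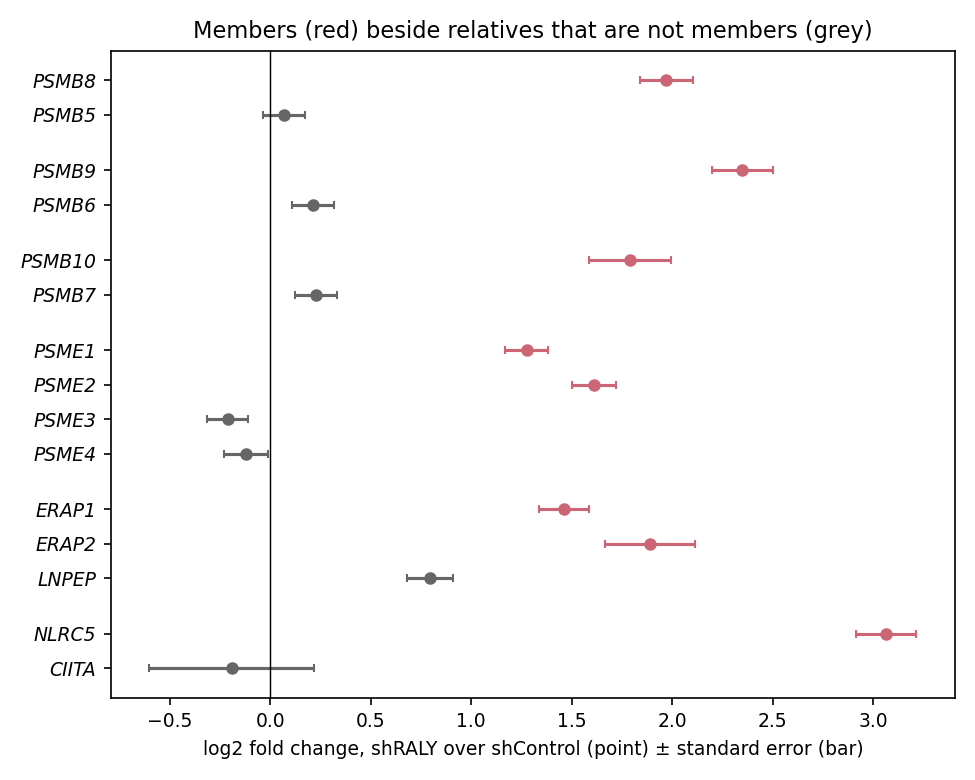
Log2 fold change of shRALY over shControl (point) with its standard error (bar) for the members, in red, beside relatives that are not members, in grey, grouped by gene family. The members lie between 1.28 and 3.07. Of the relatives, PSMB5, PSMB6, PSMB7, PSME3, PSME4 and CIITA lie between -0.21 and 0.23, and LNPEP lies at 0.79.

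Of 8 other peptidases that act on class I peptides, 3 were higher and 2 lower, with a median of 0.07, against 20.6% and 20.4% of all tested genes. The cytosolic leucine aminopeptidase gene LAP3 rose from 956 and 814 counts to 3027 and 3017 (3.45-fold; edgeR adjusted p = 1.75e-11, log2 1.79, SE 0.12). LNPEP, whose gene lies 15678 bases beyond ERAP2 and encodes an endosomal relative of ERAP1 and ERAP2, rose to 131 ± 7.22 CPM from 75.7 ± 7.88 CPM (edgeR adjusted p = 5.75e-06, log2 0.79, SE 0.11). THOP1, which destroys cytosolic peptides, fell to 64.6 ± 0.74 CPM from 97.3 ± 8.39 CPM (edgeR adjusted p = 0.000197, log2 -0.59, SE 0.11). RNPEP was lower (log2 -0.35; edgeR adjusted p = 0.0133) but did not pass with shRALY replicate 1 (0.158) or 2 (0.265) left out, and the count of lower genes was then 1.

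Downstream of trimming, all 13 tested of 14 class I chain, transport and loading genes were higher (edgeR), with a median log2 fold change of 1.81. Among all tested genes 20.6% were called higher. DESeq2 also called 13. The list was chosen with earlier results of these data known, so the count is a description. HLA-B rose the most, from 44 and 30 counts in shControl to 777 and 778 in shRALY (21.2-fold; edgeR adjusted p = 1.91e-14). HLA-C rose 4.70-fold and HLA-E 3.50-fold (edgeR adjusted p = 6.10e-13 and 4.69e-12). TAP2 rose to 47.5 ± 2.13 CPM from 13.0 ± 0.23 CPM (log2 1.87; edgeR adjusted p = 1.66e-10), but it shares 35.8% of its 50-base words with another gene. HLA-G was listed at 0 in every library.

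CIITA, the class II regulator and a relative of NLRC5, had 24 and 41 counts in shControl and 34 and 23 in shRALY, with overlapping groups (log2 -0.19, SE 0.41; edgeR adjusted p = 0.748). The error is large at these counts, and 23.4% of the exonic bases of CIITA overlap other genes. Of 11 class II genes, 6 were listed at 0 in every library, among them HLA-DRA and HLA-DRB1, where 3 counts would be 0.161 to 0.179 CPM by library totals without TMM scaling. Only HLA-DMA and HLA-DMB could be tested. HLA-DMA had 3.34 ± 0.33 CPM in the control group and 4.91 ± 0.37 CPM after knockdown (edgeR adjusted p = 0.0928). HLA-DMB was lower, at 22 and 33 counts against 6 and 12 (log2 -1.58, SE 0.54; edgeR adjusted p = 0.0233), which did not pass with DESeq2 (adjusted p = 0.0865) or without shControl replicate 2 (edgeR 0.227) or shRALY replicate 1 (edgeR 0.244).

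Of 9 genes in the list of CIITA and the DNA-bound factors with which it and NLRC5 act, 2 were higher and 2 lower, with a median of -0.19. These shares are near the 20.6% and 20.4% of all tested genes. RFX5, a subunit of the X-box factor RFX, was higher (67.0 ± 1.38 to 91.6 ± 9.27 CPM, log2 0.45; edgeR adjusted p = 0.00296), but did not pass without shRALY replicate 2 (0.185). RFXANK, another RFX subunit, was higher (log2 0.37; edgeR adjusted p = 0.039), with 23.3% of its exonic bases overlapping other genes, but lost its call in 6 of the 10 other fits, where adjusted p reached 0.366. NFYB, a subunit of the CCAAT-box factor NF-Y, fell to 24.0 ± 2.55 CPM from 40.0 ± 2.34 CPM (edgeR adjusted p = 0.000111, log2 -0.74). NFYA was lower (log2 -0.33; edgeR adjusted p = 0.0433) but lost its call in 5 of the 10 other fits, where adjusted p reached 0.322.

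Of 6 tested genes of other NLR proteins, 1 was higher and 1 lower, with a median of 0.40. NLRP1, an inflammasome sensor gene, rose from 2.39 ± 0.93 to 8.07 ± 1.21 CPM (log2 1.76; edgeR adjusted p = 1.75e-05), and NLRP2 fell from 1840 and 1657 counts to 1218 and 938 (edgeR adjusted p = 3.71e-05, log2 -0.69).

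Of 13 interferon receptor, JAK, STAT and IRF genes, 11 were higher and 1 lower, with a median log2 fold change of 0.90, against 20.6% and 20.4% of all tested genes. Without shRALY replicate 1 the counts were 7 and 0. IRF1, which binds the IRF core, rose from 289 and 299 counts to 2729 and 2707 (9.32-fold, log2 3.22, SE 0.13; edgeR adjusted p = 3.58e-15). An opposite-strand gene covers 22.0% of its exonic bases. STAT2, a transcription factor of type I interferon signalling, rose from 22.5 ± 3.19 to 139 ± 3.44 CPM (6.17-fold, log2 2.62; edgeR adjusted p = 9.00e-14). IFNGR1, a chain of the interferon gamma receptor, rose from 30.7 ± 2.55 to 80.8 ± 0.05 CPM (log2 1.40; edgeR adjusted p = 2.20e-09). The part of these regulators in the levels of the 8 genes was not tested.

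**Figure D5:**
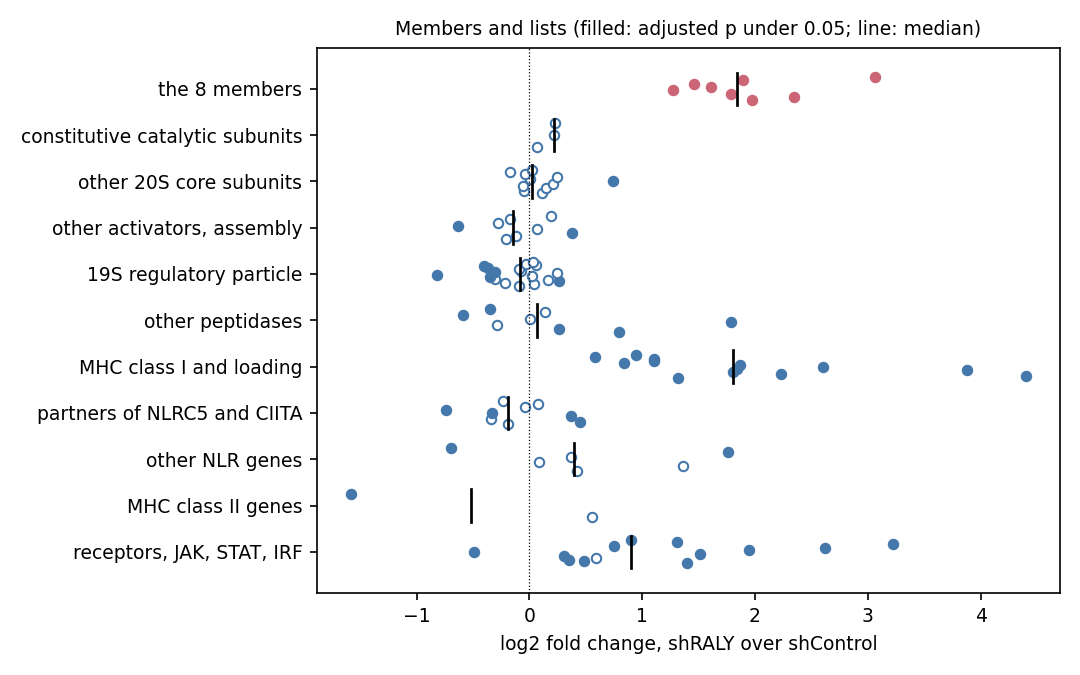
Log2 fold change of shRALY over shControl for the 8 members (red) and the tested genes of 10 related lists (blue), 1 point per gene, filled where the edgeR adjusted p was under 0.05, with a black line at each median. The members (median 1.84) and the class I genes (1.81) lie to the right, and the constitutive proteasome lists lie around 0.

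The genes most like each member were sought among 10896 other protein-coding genes that reached a minimum mean CPM in either group. Likeness was the smallest root mean square difference of mean-centred log2 CPM over the 4 libraries. With 4 libraries in 2 groups this measure mostly reflects the size of the difference between groups. The nearest were CYLD for PSME1 (0.01), ICA1 for ERAP1 (0.01), PLK3 for PSME2 (0.01), PPP1R15A for NLRC5 (0.03), PNRC1 for PSMB8 (0.05), SNAI2 for ERAP2 (0.06), ITGB3 for PSMB10 (0.06) and RND1 for PSMB9 (0.07). ICA1, ITGB3 and SNAI2 had 2.065, 2.44 and 1.59 CPM in shControl and 5.92, 8.22 and 6.2 CPM in shRALY. They reached the minimum only through shRALY, so their place as nearest depends in part on that filter. Among the members themselves, PSME1 and ERAP1 were the nearest to each other, at 0.11. NLRC5 was the furthest from any other, at 0.39 from PSMB9.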

How the data were processed

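Raw counts per gene were deposited for each library separately. Per the submitters' processing notes, HISAT2 2.0.5, featureCounts 1.5.0-p3, DESeq2 1.20.0 and hg38 were used. Their roles, the annotation used, strandedness and the handling of multiple matches were not given in the sources used here. All 58735 identifiers matched GENCODE 29 (GRCh38). Total counts were 16745818 to 18632787 per library; a floor of 3 counts covers counting error only.

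Tests used edgeR 4.0.16 with R 4.3.3 (filterByExpr, minimum count 10, minimum total 15; TMM; robust quasi-likelihood F-test; no covariate), with Benjamini-Hochberg adjustment over the 15912 tested genes and a threshold of 0.05. CPM values use TMM-scaled library sizes, and standard errors follow from the F statistic and the log2 fold change. The script was tested on simulated data. Alternatives were DESeq2 1.42.0, RLE factors, library size alone, no filter, 10 CPM in 2 libraries, a replicate block and each library left out. Summed overlapping genes and the promoter motifs were chosen after seeing the data.

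The members and the 10 lists were chosen with earlier results of these data known. Named by rule were RALY, the members, IRF1, CIITA, TAP1, TAP2 and, per list, all tested genes where it has at most 4, otherwise up to 4 with the smallest adjusted p, made up to 2 by abundance; 1 gene that the rule names is not reported here. Promoter sequences are from RefSeq (GRCh38.p14). Exonic overlap and shared 50-base words came from GENCODE 29, and counts of genes above 20% on either are uncertain.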

Additional observations from a re-analysis of the deposited data

How the results depend on the processing

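The 82 alternative log2 fold changes of the 8 members, which include the 2 sums with overlapping genes, all kept their direction. The alternative fits that used every library called all 8 higher. The members were chosen with their higher counts in these same libraries known, so nothing is read from this agreement. The widest range was that of ERAP2, 1.56 to 2.36, then PSMB10, 1.52 to 2.13. Over all genes, leaving out 1 library gave 2040 to 3559 genes higher, against 3274, and 1897 to 3499 lower, against 3245; the fewest higher came without shRALY replicate 2 and the fewest lower without shRALY replicate 1. Of the 105 listed genes, 46 were called, and 30 to 52 with 1 library left out, the fewest without shRALY replicate 1. Groups were left with 1 library there, which is assumed to vary like the other group. Only 91 of the 105 listed genes could be tested. With all libraries 33 of the 91 were higher and 13 lower, against 20.6% and 20.4% of all tested genes. The lists were chosen with earlier results known, so nothing is read from this difference. With the replicate number as a block, 3639 genes were higher and 3619 lower, and 52 listed genes were called. Same-numbered libraries deviated together (correlation 0.204 across 11225 genes), but with 2 pairs and no label this does not show that the numbers pair the libraries. With library size alone the median of all genes was -0.07, against -0.01. The other 34 named genes kept their call in 302 values under these settings, lost it in 29 and gained one in 4. An IRF core match was found in 3 members rather than 6 with 250 upstream bases alone, where 6.88% of all windows held one.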
